A study of Mus musculus with 27 samples.

Results

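The cytosolic heat shock response was followed through 10 genes, *Hspa1a*, *Hspa1b*, *Hsph1*, *Dnajb1*, *Dnaja1*, *Hspb1*, *Hspa8*, *Hsp90aa1*, *Bag3* and *Hsf1*, of 17655 genes listed in the deposited tables of whole-liver RNA sequencing from 27 mice. The genes were taken by symbol as core members of this pathway, and they were selected on values measured in these same libraries, so their levels and fold changes are given as a description and no test is read from them. Tests were read only for the other genes of the pathway, of which 66 were listed and 64 were present in the tables, and for context lists of other genes. These lists too were drawn up with earlier results of these data known, so their adjusted p-values are not independent support. All mice were *Kdm5b* fl/fl and received alcohol in the drinking water with a Western diet (WDA), so every group had been exposed to alcohol and to a viral vector. Each of the 9 groups held 3 mice. WT denotes mice given a control virus (AAV8-control on WDA, AAV-control in resolution), KO denotes mice given AAV8-CMV-Cre or AAV-CMV-Cre, whose promoter is not restricted to 1 cell type, and HepKO denotes mice given AAV8-TBG-Cre, whose promoter directs expression to hepatocytes. The labels do not say which promoter the control virus carried. By the labels, 5 groups (the WDA groups: WT, KO and HepKO females, WT and KO males) were on WDA for 8 weeks, a shorter time than the study's methods give. The other 4 (the Res groups: both genotypes, WT and KO, in each sex) were on WDA for 16 weeks, then received the virus and were left without alcohol for 4 weeks. Per the study, mice in resolution were moved from the Western diet to chow with plain water. The labels of the WDA groups name the virus before the 8 weeks of WDA. Ages are not given in the labels. All WDA libraries belong to experiment 11 and all Res libraries to experiment 12. Stage, diet, experiment, feeding time and timing of the virus therefore cannot be told apart in any comparison of Res with WDA. The time of day at which the livers were taken is not given in the sources used here.

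Heat shock proteins are chaperones that hold unfolded polypeptides, refold them or hand them to degradation. In unstressed cells the transcription factor HSF1, encoded by *Hsf1*, is held inactive by chaperones. When unfolded proteins occupy the chaperones, HSF1 is released, forms trimers and binds heat shock elements, inverted repeats of GAA and TTC, in the promoters of chaperone genes. The HSP70 proteins carry out the folding cycle, J-domain proteins such as DNAJB1 and DNAJA1 bring substrates to them, and HSPH1 and BAG3 exchange their nucleotide. In liver the constitutive HSC70, encoded by *Hspa8*, is abundant in hepatocytes, while *Hspa1a* and *Hspa1b* are low until a stress such as heat, oxidants or alcohol.

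Library totals lay between 14634602 and 19388251 counts. The libraries were liver by their markers, with 6 hepatocyte transcripts summing to 73973.3 to 171886.8 CPM (counts scaled to a common library size with TMM factors). Transcripts of *Kdm5b*, the targeted gene, were lower in all KO than in all WT mice in WDA males, Res females and Res males. They were also lower in all HepKO than in all WT WDA females. In WDA males the gap was small, with KO mice at 20.6, 21.9 and 22.0 CPM and WT mice at 23.5, 24.4 and 24.9 CPM. KO WDA females at 14.5, 15.9 and 24.1 CPM overlapped WT WDA females at 21.4, 25.2 and 31.2 CPM. In 5 libraries (WT WDA female mouse 7, KO WDA male mouse 17, WT Res female mouse 13, KO Res male mouse 5 and WT Res male mouse 9) 6 cholangiocyte markers summed to 155.9 to 533.1 CPM, against 16.4 to 105.9 CPM in the other 22 libraries. The library of WT Res female mouse 13 also held 147 CPM of pancreatic acinar transcripts, against at most 5.87 CPM elsewhere, and KO Res male mouse 5 carried 8 female-biased transcripts at a median of 0.312 of the level in Res females, against at most 0.0250 in the other males. These libraries were kept, and counts without them are given where they differ. In whole liver, fewer cells of a type and less RNA per cell cannot be told apart.

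The inducible HSP70 genes *Hspa1a* (gene 193740) and *Hspa1b* (gene 15511) lie beside each other at chr17:34969359-34972156 and chr17:34956429-34959238 (RefSeq, GRCm38.p6). They are near-identical copies, which bears on every value given for them. In GENCODE M21 their coding sequences are 1926 and 1929 bases long, and 1926 aligned bases differ at 8 positions beside 1 insertion of 3 bases. Their promoters are shown because they also match almost base for base. The 250 bases before each transcription start, from RefSeq on GRCm38.p6, minus strand, chr17:34972157-34972406 for *Hspa1a* and chr17:34959239-34959488 for *Hspa1b*, differ at 3 positions, in capitals. Counted from 1 at the 5′ end, and from *Hspa1a* to *Hspa1b*, these were C44T, T47C and T249G.
Hspa1a: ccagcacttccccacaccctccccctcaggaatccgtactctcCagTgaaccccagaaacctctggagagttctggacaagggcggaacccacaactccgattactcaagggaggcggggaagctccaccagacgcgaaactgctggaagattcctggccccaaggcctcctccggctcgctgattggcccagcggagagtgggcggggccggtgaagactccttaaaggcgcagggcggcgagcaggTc
Hspa1b: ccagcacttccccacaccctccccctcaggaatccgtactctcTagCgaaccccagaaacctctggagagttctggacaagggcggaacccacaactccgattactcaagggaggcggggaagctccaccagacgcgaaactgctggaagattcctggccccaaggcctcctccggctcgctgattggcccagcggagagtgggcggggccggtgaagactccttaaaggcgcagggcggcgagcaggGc

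Heat shock elements were searched as 2 units (GAANNTTC or TTCNNGAA) and as 3 units (GAANNTTCNNGAA or TTCNNGAANNTTC), patterns that cover both strands. Every match of 3 units also holds matches of 2 units. The windows held 250 bases before and 50 after each RefSeq start. Promoter windows were given for 7 of the 10 genes, and *Hspa8*, *Hsp90aa1* and *Hsf1* had none. A match of 2 units was present in 6 of these 7 genes, against 16.97% of 27025 genes with a window, and a match of 3 units in 1, *Hsph1*, against 0.662%. Of the other genes of the pathway, 56 had a window, 16 of them with 2 units and 4 with 3 units. *Dnajb1* was the member without a match in its windows. One match per gene, and both of *Hsph1*, stand in capitals below with the bases around them. They are shown because the pathway's factor is known to bind repeats of GAA and TTC. Outside *Hsph1* these matches hold only 2 units, as found in 16.97% of genes with a window. A match describes letters only and was not tested for binding. *Hspb1* held a further match, GAACCTTC at -97 to -90, which lies in lower case in its line. *Hsph1* has more than 1 listed start, and positions are from the one farther downstream.
Hspa1b (chr17:34959305-34959372, minus strand, match at -104 to -97 from the start, the same letters and place as in Hspa1a): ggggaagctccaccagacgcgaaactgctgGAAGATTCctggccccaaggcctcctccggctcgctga
Hsph1 (chr5:149636332-149636399, minus strand, match at -54 to -47): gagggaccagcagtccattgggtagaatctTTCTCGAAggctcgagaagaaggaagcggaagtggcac
Hsph1 (chr5:149636280-149636308, minus strand, match of 3 units at 16 to 28 past the same start): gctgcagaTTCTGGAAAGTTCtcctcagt
Hspb1 (chr5:135887772-135887839, plus strand, match at -117 to -110): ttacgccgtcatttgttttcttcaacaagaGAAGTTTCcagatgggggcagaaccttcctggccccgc
Dnaja1 (chr4:40722314-40722381, plus strand, match at -124 to -117): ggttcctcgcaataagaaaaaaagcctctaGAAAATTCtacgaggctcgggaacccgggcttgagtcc
Bag3 (chr7:128523617-128523632, plus strand, match at 43 to 50 past the start): tgggaccaGAAGTTTC

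Compared per length, on the deposited FPKM scale, the members spanned a wide range of levels in these livers. *Hspa8* was highest, with a median of 658 FPKM over the 27 libraries and a range of 431 to 1129.3 FPKM. *Dnaja1*, a J-domain partner of HSC70, had a median of 63.9 FPKM, *Hsp90aa1*, the inducible cytosolic HSP90, 60.2 FPKM, and *Hspb1*, the small heat shock protein HSP27, 39.3 FPKM. *Bag3*, which links HSP70 to autophagy, had a median of 12.2 FPKM, *Hsph1*, the cytosolic HSP110, 8.83 FPKM, *Dnajb1*, the stress-inducible J-domain protein, 6.71 FPKM, and *Hsf1* 5.92 FPKM. The inducible HSP70 genes were lowest, with medians of 2.84 FPKM for *Hspa1b* and 0.26 FPKM for *Hspa1a*.

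The members differed more in how far they moved between mice. On the CPM scale, which is used for every value below unless stated, the highest library exceeded the lowest by 207-fold for *Hspa1b*, by 15.3-fold for *Hspa1a*, by 8.12-fold for *Hsph1* and by 7.30-fold for *Hspb1*. The remaining chaperone genes ranged by 2.51-fold for *Bag3* to 3.80-fold for *Dnajb1*, and the gene of the factor itself, *Hsf1*, by 1.61-fold, from 9.52 to 15.4 CPM. For 8 of the 10 genes the highest group median was that of WT WDA males. The lowest group median was that of KO Res females for 5 genes, of HepKO WDA females for 3 and of WT Res females for 2.

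**Figure D1:**
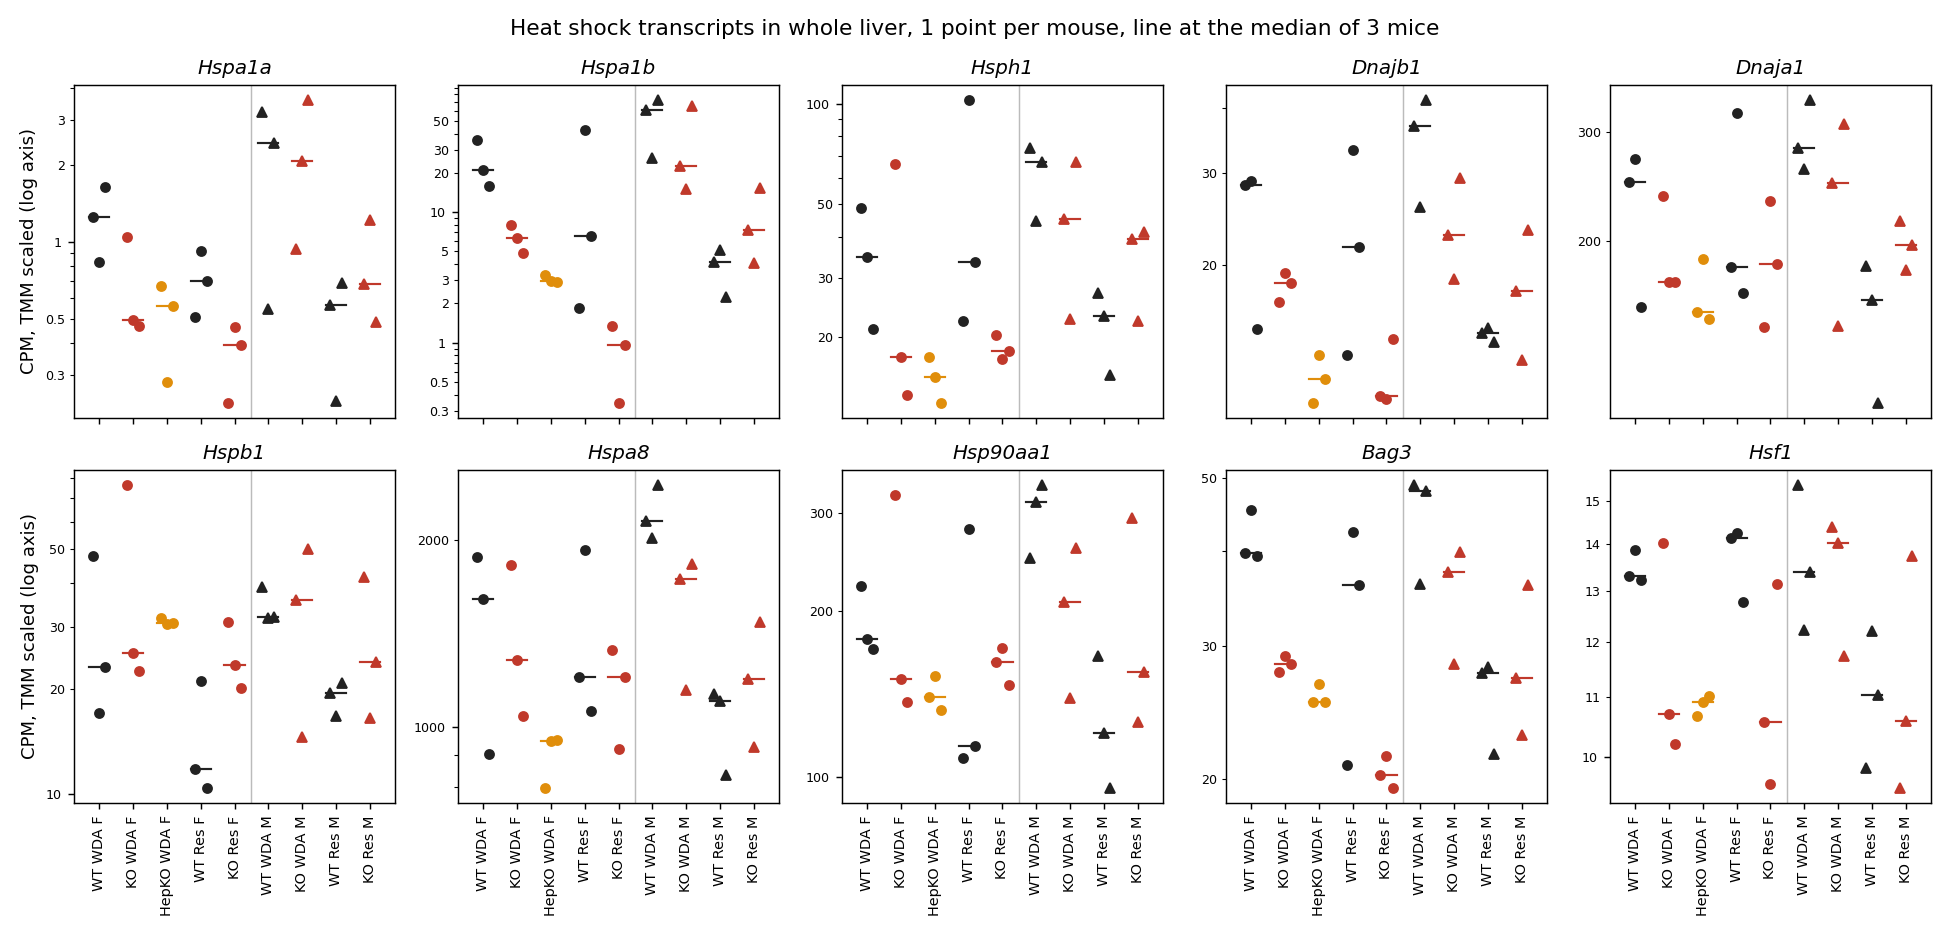
Level of each of the 10 transcripts in CPM (log axis) in all 27 mice, by group, with 1 point per mouse, a line at the median of 3 mice, circles for females and triangles for males. WT WDA males stand highest for most transcripts, *Hspa1b* spans from 0.348 to 72.2 CPM, and *Hsf1* stays between 9.52 and 15.4 CPM.

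*Hspa1b* had the clearest separation between groups. In WT males it was 25.9, 60.6 and 72.2 CPM on WDA and 2.23, 4.16 and 5.16 CPM after resolution. In KO males it was 15.1, 22.6 and 64.5 CPM on WDA and 4.08, 7.24 and 15.4 CPM after resolution. All WT Res males were below all WT WDA males, whereas 1 KO Res male (mouse 6) was just above the lowest KO WDA male (mouse 17). In females, WT mice on WDA had 15.9, 20.9 and 35.6 CPM, KO mice on WDA had 4.84, 6.37 and 7.93 CPM, and HepKO mice had 2.90, 2.99 and 3.31 CPM. No KO or HepKO female on WDA reached the lowest WT female on WDA. WT Res females had 1.86, 6.58 and 42.9 CPM, and KO Res females had 0.348, 0.956 and 1.35 CPM. The high WT Res value was that of mouse 12, and every KO Res female was below every other mouse of the series. In order of their medians the groups ran from WT WDA males, KO WDA males and WT WDA females through KO Res males, WT Res females, KO WDA females, WT Res males and HepKO females to KO Res females. Of the 8 neighbouring pairs in that order, 6 overlapped, and WT WDA females lay above KO Res males and HepKO females above KO Res females without overlap.

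*Hspa1a* was near the limit of detection, with 4.05 to 58.8 counts per library. It was 0.544, 2.44 and 3.22 CPM in WT WDA males and 0.237, 0.567 and 0.689 CPM in WT Res males, which overlapped by 1 mouse. It fell short of the filter on low counts in the comparisons of KO Res females with KO WDA females and with WT Res females. *Hspa1a* took between 2.08% and 55.6% of the summed counts of both genes, with a median of 9.20%, and *Hspa1b* was the higher in 26 of 27 libraries. The sum of both counts was whole to within 0.02 in 22 of 27 libraries, whereas each count was whole in 1, so reads that match both genes were divided between them and the share of each gene is uncertain. With both genes summed as 1 feature, no log2 fold change of *Hspa1b* moved by more than the spread between mice. Since the median share of *Hspa1a* was 9.20%, the sum was mostly *Hspa1b*. This check could therefore hardly show a change and does not settle how the reads divide.

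*Hsph1*, which recharges HSP70 with ATP, was 44.4, 67.0 and 73.9 CPM in WT WDA males and 15.3, 23.1 and 27.1 CPM in WT Res males, with no overlap. Single mice widened the spread within female groups. *Hsph1* was 21.1, 34.8 and 48.8 CPM in WT WDA females and 22.4, 33.5 and 102.9 CPM in WT Res females. *Hsph1* was 13.3, 17.3 and 66.2 CPM in KO WDA females and 17.2, 18.1 and 20.2 CPM in KO Res females. The 102.9 CPM of WT Res female mouse 12 was the highest *Hsph1* value of the series, and the 66.2 CPM in KO WDA females was that of mouse 1. HepKO females were more even, at 12.7, 15.1 and 17.3 CPM. All 8 neighbouring pairs of groups overlapped.

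*Dnajb1*, the J-domain protein that starts the HSP70 cycle and feeds back on HSF1, was 25.8, 36.9 and 41.4 CPM in WT WDA males and 14.2, 14.8 and 15.1 CPM in WT Res males. WT WDA females had 15.1, 28.5 and 29.0 CPM of *Dnajb1* and HepKO females 10.9, 12.1 and 13.4 CPM, again without overlap. KO Res females, at 11.1, 11.2 and 14.4 CPM, overlapped WT Res females, at 13.5, 21.6 and 33.2 CPM, by 1 mouse. *Dnaja1* was less variable, with 261.9, 283.4 and 338.4 CPM in WT WDA males and 109.5, 160.6 and 182.0 CPM in WT Res males. Its values in the other 7 groups lay between 144.9 and 322.8 CPM, and all neighbouring pairs overlapped.

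*Hspb1*, which prevents aggregation without ATP, followed another order than the rest. It was 31.8, 32.0 and 39.1 CPM in WT WDA males and 16.7, 19.4 and 20.8 CPM in WT Res males. Among females its medians were higher in KO and HepKO mice than in WT mice. *Hspb1* was 17, 23.1 and 47.7 CPM in WT WDA females, 22.5, 25.3 and 76.3 CPM in KO WDA females and 30.7, 30.8 and 31.8 CPM in HepKO females. WT Res females had the lowest group median at 11.8 CPM, with mice at 10.4 and 21.1 CPM on either side, and KO Res females had 20.1, 23.4 and 31.0 CPM.

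*Bag3* had the smallest spread within groups of the chaperone genes on the log2 scale. It was 39.5, 39.8 and 45.3 CPM in WT WDA females, 27.7, 28.4 and 29.1 CPM in KO WDA females and 25.2, 25.3 and 26.7 CPM in HepKO females. Both vectors with Cre thus gave values below the lowest WT mouse on WDA. KO Res females, at 19.5, 20.2 and 21.5 CPM, overlapped WT Res females, at 20.9, 36.1 and 42.5 CPM, by 1 WT mouse. In males, *Bag3* was 36.2, 48.0 and 48.9 CPM in WT WDA mice and 21.6, 27.6 and 28.1 CPM in WT Res mice.

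*Hspa8* and *Hsp90aa1* carried the most transcript together with *Dnaja1*. *Hspa8* was 2021.3, 2147.3 and 2458.4 CPM in WT WDA males, and every one of these mice was above every KO WDA male, at 1147.5, 1731.6 and 1830.3 CPM, and above every WT Res male, at 835.3, 1099.2 and 1129.2 CPM. In females *Hspa8* ranged from 902.1 to 1881.2 CPM in WT WDA mice, with mouse 7 lowest, and from 797.7 to 952.6 CPM in HepKO mice. *Hsp90aa1* was 248.9, 314.6 and 337.1 CPM in WT WDA males and 95.9, 120.3 and 165.6 CPM in WT Res males. Single mice again stood high in other groups, with 323.7 CPM of *Hsp90aa1* in KO WDA female mouse 1, 280.6 CPM in WT Res female mouse 12 and 293.8 CPM in KO Res male mouse 11.

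*Hsf1* varied little. WT WDA females had 13.2, 13.3 and 13.9 CPM and HepKO females 10.7, 10.9 and 11.0 CPM, which did not overlap. WT WDA males had 12.2, 13.4 and 15.4 CPM and WT Res males 9.82, 11.0 and 12.2 CPM, which did not overlap but met at 12.2 CPM. The amount of *Hsf1* transcript is not a measure of the factor's activity, which is known to be set by its trimerization and phosphorylation.

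Most members varied together from mouse to mouse, *Hspa1a* and *Hsf1* least so within groups. The members were chosen on values of these libraries, and no r for pairs of other genes is given as a reference. Each library was placed by the mean z score of the 10 genes over the 27 libraries. The highest were WT WDA male mice 21 and 19, KO WDA male mouse 18, WT Res female mouse 12, WT WDA female mouse 5 and KO WDA female mouse 1, and the lowest was WT Res male mouse 9. In 7 libraries at least 9 of the 10 genes were above their own median, and in 6 libraries at most 1 was. Mouse 12 had the highest value of all 10 genes among WT Res females, and mouse 1 of 8 genes among KO WDA females. Over 45 pairs of members and 27 libraries, which share depth and scaling factors, Pearson's r between log2 CPM values had a median of 0.623 and ranged from -0.015 for *Hspb1* with *Hsf1* to 0.924 for *Hspa1b* with *Bag3*. With group means subtracted, the median was 0.513. The genes least like the others on that scale were *Hspa1a* (median r of 0.111 with the other members) and *Hsf1* (0.133), and the most like was *Hsph1* (0.768).

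**Figure D2:**
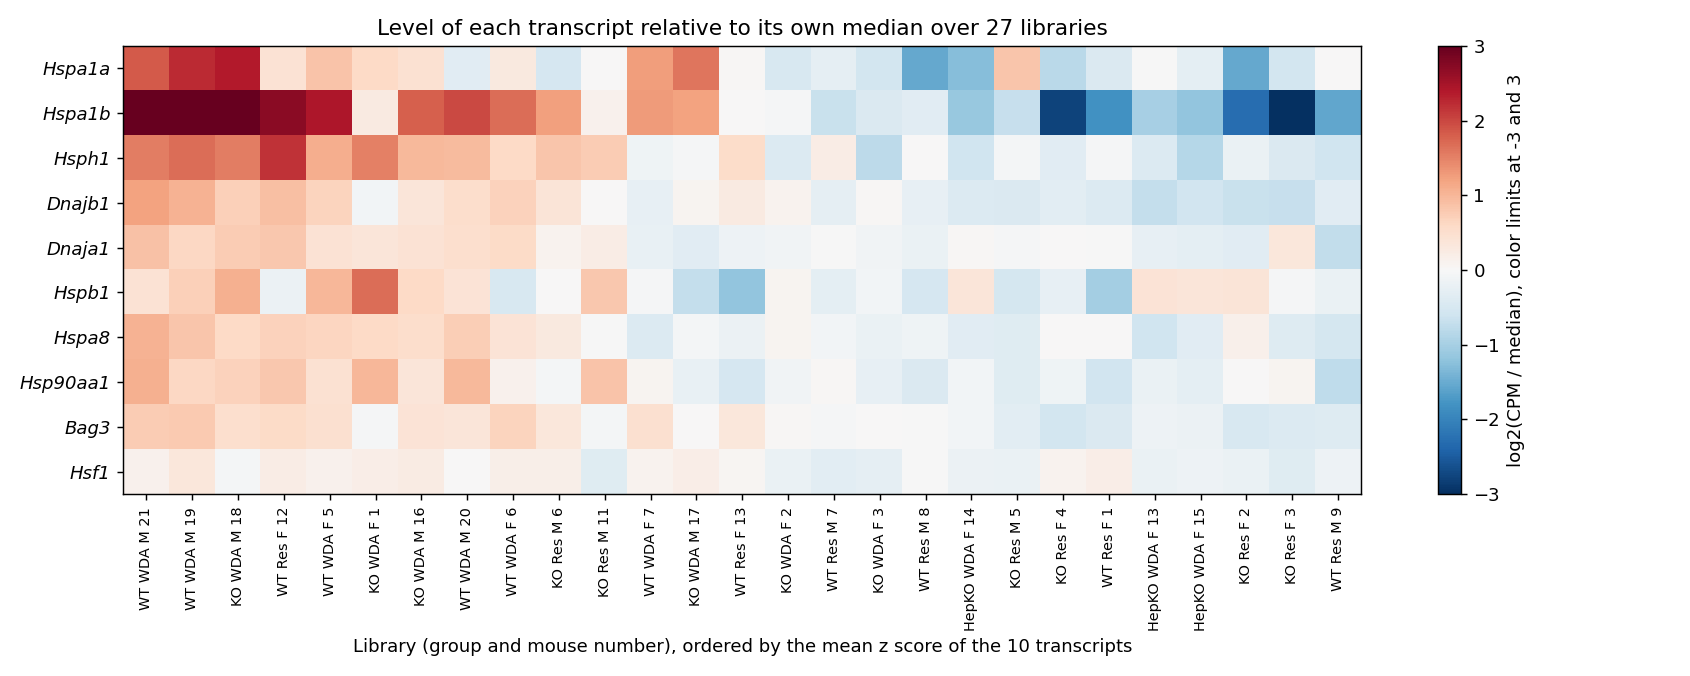
Each of the 10 transcripts (rows) in each of the 27 libraries (columns, labelled by group and mouse number and ordered by the mean z score), as log2 of the CPM over the transcript's own median. Colors stop at -3 and 3. The left 9 libraries are high for most transcripts, with *Hspb1* and *Hspa1a* as partial exceptions, and *Hspa1b* shows the strongest colors at both ends.

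Resolution was compared with WDA in each sex and genotype. In WT males all 10 members had lower counts after resolution, 9 of them without overlap between the groups, where 19.6% of all 12408 genes tested were lower without overlap. The log2 fold changes (± SE, edgeR, n = 3 and 3) were -3.77 ± 0.43 for *Hspa1b*, -2.01 ± 0.65 for *Hspa1a*, -1.49 ± 0.24 for *Hsph1*, -1.22 ± 0.17 for *Dnajb1*, -1.22 ± 0.20 for *Hsp90aa1*, -1.10 ± 0.14 for *Hspa8*, -0.95 ± 0.18 for *Dnaja1*, -0.84 ± 0.13 for *Hspb1*, -0.77 ± 0.15 for *Bag3* and -0.29 ± 0.14 for *Hsf1*. Their median was -1.16, beside 0.02 over all genes tested. The adjusted p-value was under 0.05 for 8 of the 10, as it was for 1361 genes or 11.0% of all genes tested, and since the members were chosen on these values nothing is read from that count. Without WT WDA male mouse 21 the 1361 genes became 106, and the log2 fold changes of all 10 members stayed below 0 whichever mouse was left out.

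In WT females the same comparison gave values on both sides of 0. The log2 fold change was -0.49 ± 0.97 for *Hspa1b*, 0.61 ± 0.59 for *Hsph1*, -0.06 ± 0.36 for *Hspa8* and -1.02 ± 0.44 for *Hspb1*, with a median of -0.13 over the 10 genes. No member was without overlap, where 10.3% of genes were lower without overlap, and none of 12603 genes passed the threshold (0%) by edgeR, although 1716 passed 0.05 unadjusted and DESeq2 called 404. The value of *Hspa1b* rested on 1 mouse, since it was -2.49 without WT Res female mouse 12. That mouse also turned *Hsph1*, which was -0.31 without it, and *Hspb1* was -0.46 without WT WDA female mouse 5. Whether the stage effect differed between WT males and WT females was not tested. With both sexes of WT mice in 1 fit, all 10 members were lower, with a median of -0.61, *Hspb1* at -0.93 ± 0.24 and *Hspa1b* at -2.04 ± 0.82 (-3.20 without WT Res female mouse 12). In that fit 1 member and 10.3% of 13152 genes passed the threshold.

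In KO females 9 members were tested and all had lower counts after resolution. *Hspa1b* was at -2.84 ± 0.37, *Dnajb1* at -0.58 ± 0.14 and *Bag3* at -0.48 ± 0.11, and these 3 did not overlap between the groups, where 20.3% of genes were lower without overlap. The adjusted p-value was under 0.05 for 3 of the 9 and for 20.4% of all 12470 genes tested. *Hsph1* at -0.81 ± 0.49, *Hspb1* at -0.74 ± 0.41 and *Hsp90aa1* at -0.35 ± 0.28 rested on KO WDA female mouse 1, since they were 0.26, 0.05 and 0.15 without it. In KO males all 10 members were lower but every one overlapped, with *Hspa1b* at -1.92 ± 0.64 and a median of -0.33. Without KO WDA male mouse 18 *Hspa1b* was at -1.06, and *Hsph1*, *Dnaja1*, *Hspb1* and *Hsp90aa1* were at 0.04, 0.02, 0.14 and 0.17. With all mice 6.13% of genes were lower without overlap and 0 of 12747 (0%) passed by edgeR, beside 819 at 0.05 unadjusted and 79 called by DESeq2.

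**Figure D3:**
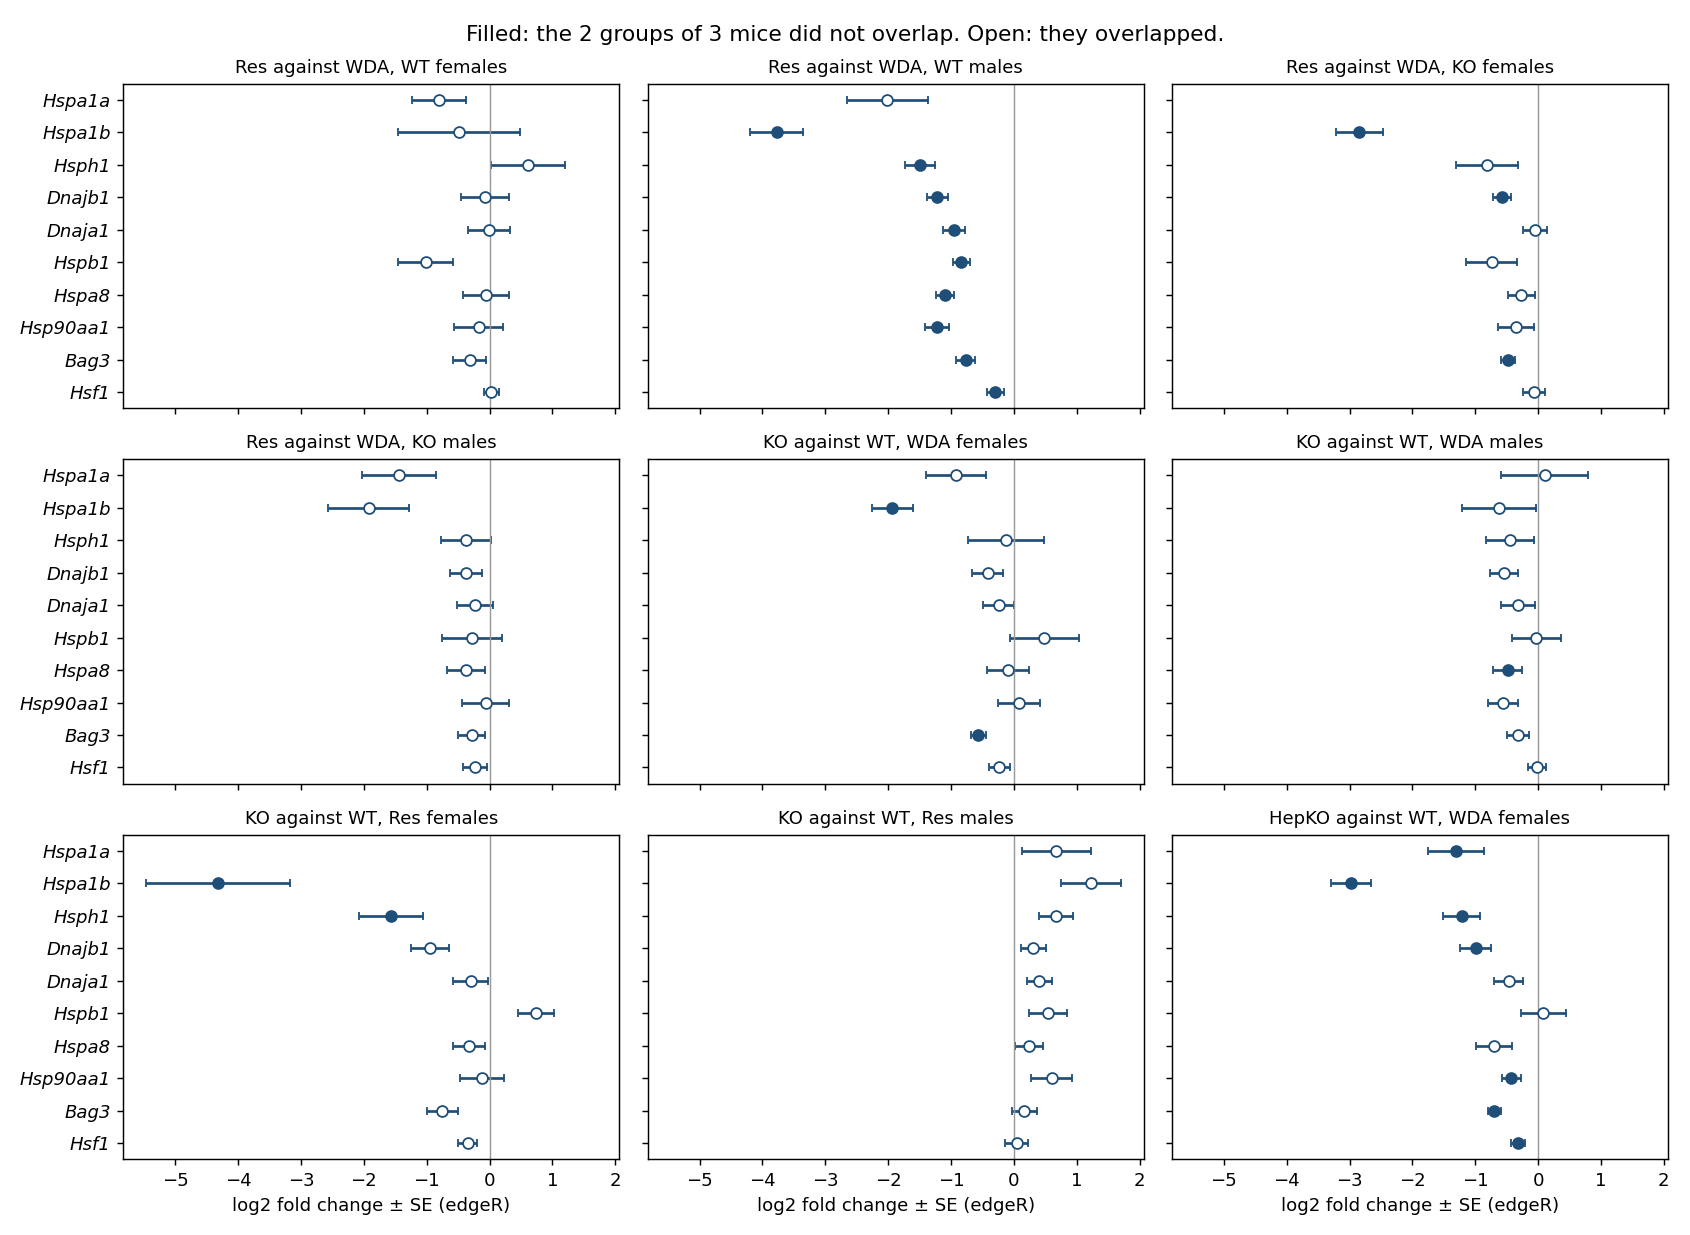
Log2 fold change with its SE (edgeR) for each of the 10 members in 9 comparisons of 3 mice with 3 mice. Filled points did not overlap between the groups, and open points did. WT males (Res against WDA) have 9 filled points, all below 0, HepKO females have 7, and KO Res males lie above 0 for all 10 genes with all points open.

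KO was compared with WT at each stage. In WDA females *Hspa1b* was at -1.93 ± 0.33 and *Bag3* at -0.57 ± 0.12, and these 2 of the 10 members did not overlap, where 3.83% of genes were lower without overlap. The other members lay between -0.92 for *Hspa1a* and 0.48 for *Hspb1*, and the values of *Hsph1*, *Hspb1*, *Hspa8* and *Hsp90aa1* changed with KO WDA female mouse 1, without which they were -1.20, -0.30, -0.35 and -0.42. In WDA males 9 members were lower in KO mice, by a median of -0.39 over the 10, and only *Hspa8*, at -0.48 ± 0.23 (-0.31 without KO WDA male mouse 17), did not overlap, where 8.69% of genes were lower without overlap. The sign for *Hspb1* (-0.03) and *Hsf1* (-0.02) was the opposite with library totals in place of TMM factors. In neither comparison did any gene pass by edgeR (0% of 12397 and 0% of 12419), with 385 and 958 genes at 0.05 unadjusted and 8 and 17 genes called by DESeq2.

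After resolution the KO log2 fold changes of *Hspa1b* and *Hsph1* were below 0 in females and above 0 in males. In females *Hspa1b* was at -4.32 ± 1.15 and *Hsph1* at -1.57 ± 0.51, both without overlap, where 12.4% of genes were lower without overlap, and *Dnajb1* was at -0.95 ± 0.31, *Bag3* at -0.75 ± 0.24 and *Hspb1* at 0.74 ± 0.28. Without WT Res female mouse 12 these were -2.29 for *Hspa1b*, -0.63 for *Hsph1*, -0.56 for *Dnajb1* and 1.13 for *Hspb1*. In males all 10 members were higher in KO mice, from 0.05 ± 0.18 for *Hsf1* to 1.23 ± 0.48 for *Hspa1b*, with a median of 0.47, but every one overlapped, where 2.08% of genes were higher and 2.56% lower without overlap. Without KO Res male mouse 6 *Hspa1b* was at 0.58, and *Hsf1* and *Bag3* were at -0.12 and -0.02. By edgeR no gene passed in females (0% of 12577, with 2413 at 0.05 unadjusted and 636 called by DESeq2) or in males (0% of 12620, with 183 and 7). The KO effect in females minus that in males was -5.52 ± 1.35 for *Hspa1b*, -2.22 ± 0.65 for *Hsph1*, -1.24 ± 0.40 for *Dnajb1* and -0.90 ± 0.33 for *Bag3*. In that fit 0% of 13178 genes passed by edgeR, with 1512 at 0.05 unadjusted and 85 called by DESeq2. Without WT Res female mouse 12 the difference was -3.51 for *Hspa1b* and -1.29 for *Hsph1*. With both sexes in 1 fit, *Hspa1b* was at -1.30 ± 1.16 (-0.24 without mouse 12) and *Hspb1* at 0.64 ± 0.23, and 0% of 13178 genes passed by edgeR, with 1035 at 0.05 unadjusted and 6 called by DESeq2.

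HepKO females on WDA were compared with the same 3 WT WDA females as the KO females, so these 2 comparisons are not independent. *Hspa1b* was at -2.98 ± 0.31, *Hspa1a* at -1.30 ± 0.45, *Hsph1* at -1.21 ± 0.30, *Dnajb1* at -0.99 ± 0.25, *Bag3* at -0.69 ± 0.10, *Hsp90aa1* at -0.43 ± 0.15 and *Hsf1* at -0.32 ± 0.11. These 7 of the 10 members did not overlap, where 8.99% of genes were lower without overlap. *Hspa8* at -0.70 ± 0.28 and *Dnaja1* at -0.47 ± 0.23 overlapped only through WT WDA female mouse 7, one of the libraries with cholangiocyte transcripts, and *Hspb1* was at 0.08 ± 0.35. No gene of 12413 passed by edgeR (0%, with 1249 at 0.05 unadjusted and 230 called by DESeq2). Without mouse 7, 349 genes passed.

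Under library totals in place of TMM factors the median of all genes moved from between -0.04 and 0.02 to between -0.23 and 0.21 (log2), so small fold changes depend on the scaling. Over all comparisons and alternatives of scaling, filter, tool, measure and libraries, 12 of 828 log2 fold changes of members changed sign, all of them for *Dnaja1*, *Hsp90aa1*, *Hspb1* or *Hsf1*.

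The other genes of the pathway were tested by list, and the lists were drawn up with earlier results of these data known. In WT males, 61 were tested and 13 had an adjusted p-value under 0.05 (edgeR quasi-likelihood test), 12 lower and 1 higher after resolution, beside 11.0% of all genes tested. Of 12 HSP90 genes and co-chaperones, 6 fell and 1 rose. *Stip1*, which joins HSP70 to HSP90, fell by 1.003 ± 0.13 on the log2 scale (adjusted p = 0.00713), from 74.9, 80.3 and 88.1 CPM to 31.9, 42.0 and 46.2 CPM. *Chordc1*, an HSP90 co-chaperone, fell by 1.02 ± 0.15 (adjusted p = 0.0102), from 30.1, 35.8 and 38.5 CPM to 13.3, 18.3 and 19.5 CPM. Both were without overlap. *Hsp90ab1*, the constitutive HSP90, fell by 0.56 ± 0.09 (adjusted p = 0.0136) and *Fkbp4*, a co-chaperone of steroid receptors, by 0.56 ± 0.11 (adjusted p = 0.0221). *Fkbp5*, a glucocorticoid-induced co-chaperone that lowers the receptor's hormone binding, rose by 1.44 ± 0.16 (adjusted p = 0.00388), from 35.4, 35.8 and 43.9 CPM to 85.5, 98.3 and 125.2 CPM. Of 7 other heat-inducible genes, 3 fell, among them *Hspe1*, the mitochondrial HSP10, by 0.64 ± 0.08 (adjusted p = 0.00539) and *Zfand2a* by 0.58 ± 0.11 (adjusted p = 0.0210). *Hsf2*, a second heat shock factor, fell by 0.64 ± 0.14 (adjusted p = 0.0306). None of 6 other HSP70 and HSP110 genes, 3 other small heat shock genes or 10 nucleotide exchange and degradation co-chaperones passed, while 1 of 8 genes of the TCP1 ring chaperonin, which folds actin and tubulin, and 1 of 10 other J-domain genes did. The median over the 61 genes was -0.17, beside 0.02 over all genes. Without WT WDA male mouse 21, 2 pathway genes passed in place of 13.

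In KO females, 60 were tested and 13 passed, 8 higher and 5 lower after resolution. *Fkbp5* rose by 1.91 ± 0.36 (adjusted p = 0.00794) and *Hsf4*, a heat shock factor of the lens, by 1.001 ± 0.19 (adjusted p = 0.00697). *Dnajb5* rose by 0.98 ± 0.20 (adjusted p = 0.0118), *Tomm34* by 0.93 ± 0.26 (adjusted p = 0.0316) and *Unc45a*, a myosin chaperone, by 0.76 ± 0.17 (adjusted p = 0.0140). *Chordc1* fell by 1.44 ± 0.30 (adjusted p = 0.0109), *Hsf2* by 0.80 ± 0.15 (adjusted p = 0.00824) and *Dnajb2* by 0.79 ± 0.15 (adjusted p = 0.00749). The median over the 60 genes was 0.01, and these calls went both ways. Of all genes tested 20.4% passed, so 13 of 60 is near that share and is no result about the pathway. Without KO Res female mouse 4, 5 passed.

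**Figure D4:**
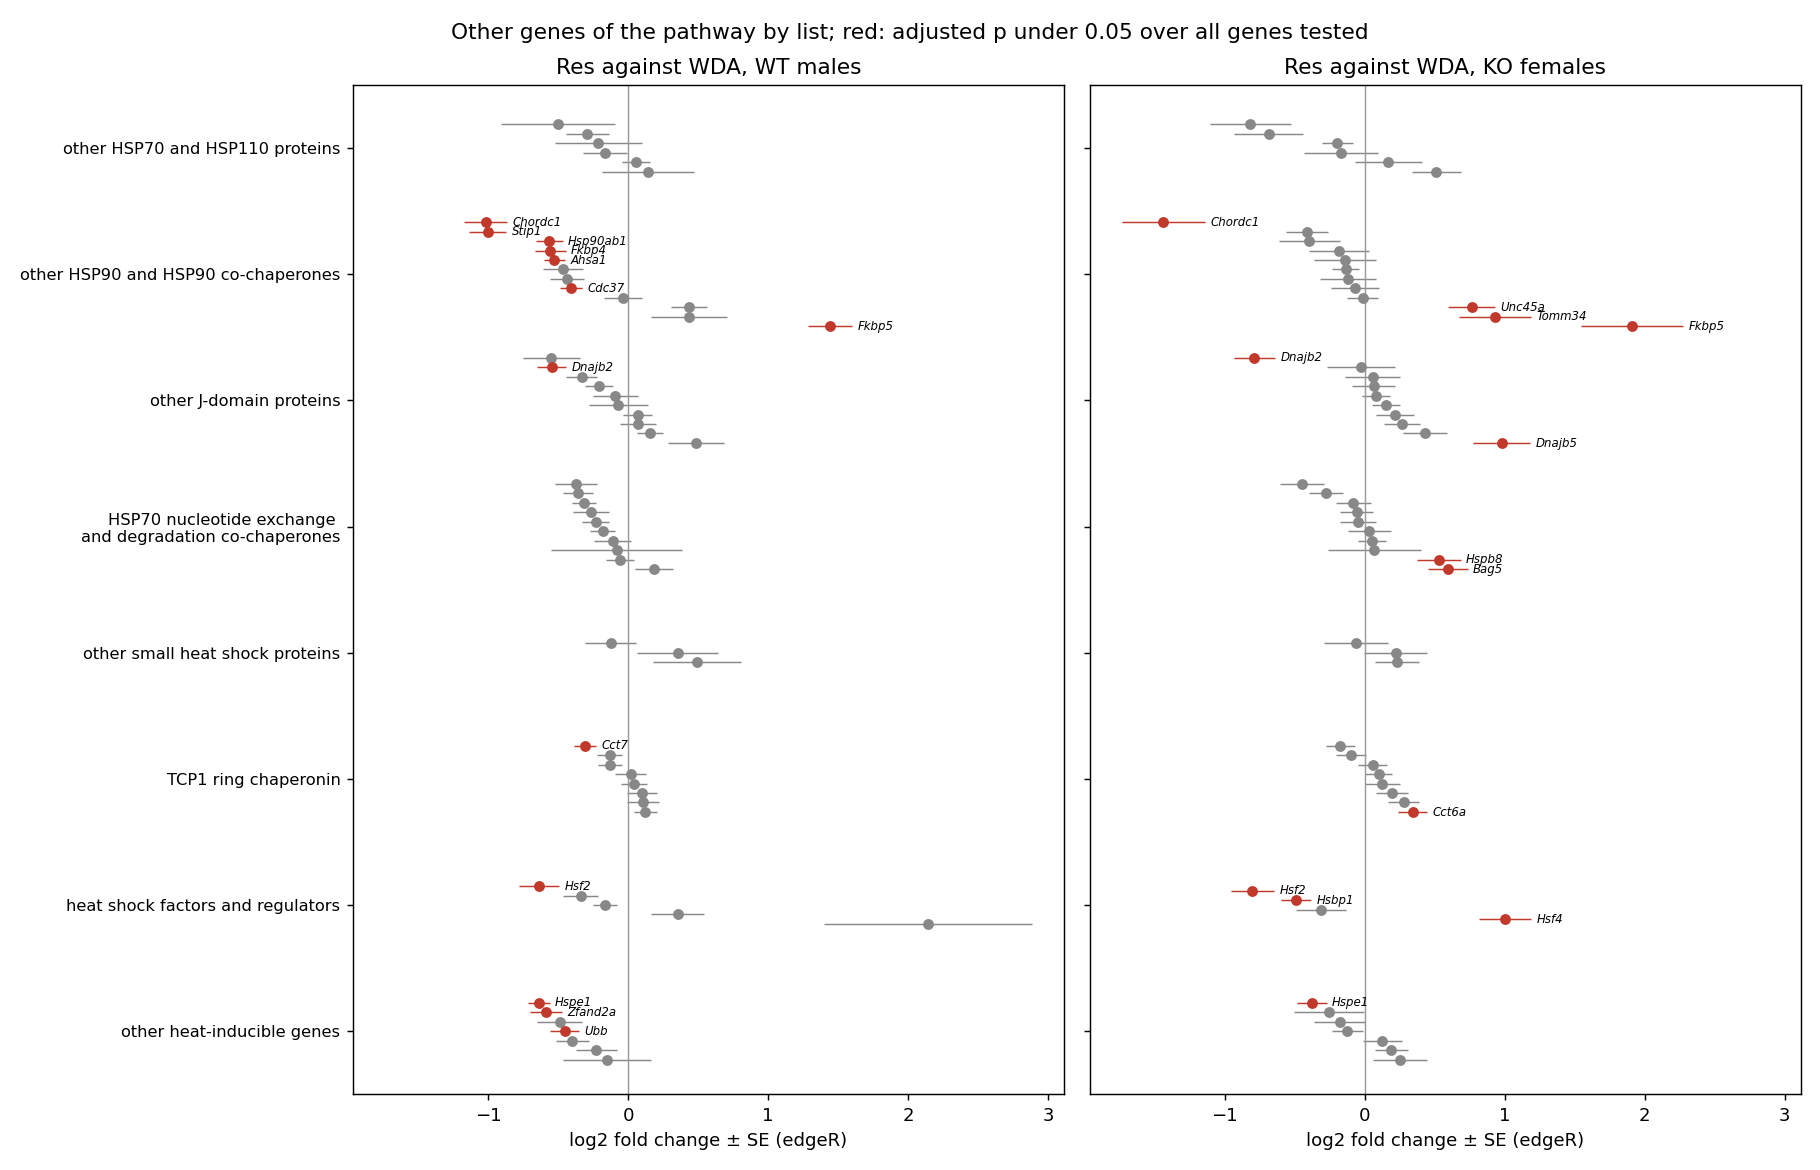
Log2 fold change with its SE (edgeR) of the other genes of the pathway, by list, for Res against WDA in WT males (left) and in KO females (right). Red points with a name passed an adjusted p-value of 0.05 over all genes tested. In WT males 12 of 13 named genes lie below 0, and in KO females 8 of 13 lie above it, with *Fkbp5* farthest to the right of the named genes in both.

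With both sexes of WT mice in 1 fit, 7 of 62 passed, which is near the 10.3% of all genes that did and so is no result about the pathway. *Fkbp5* rose by 1.36 ± 0.16 (adjusted p = 0.00189), and *Hspe1* fell by 0.62 ± 0.13 (adjusted p = 0.0127), *Dnajb2* by 0.49 ± 0.13 (adjusted p = 0.0382), *Ahsa1*, which stimulates the HSP90 ATPase, by 0.38 ± 0.10 (adjusted p = 0.0354), *Hspbp1* by 0.38 ± 0.10 (adjusted p = 0.0383), *Cdc37*, the kinase co-chaperone, by 0.34 ± 0.09 (adjusted p = 0.0393) and *Cct7* by 0.29 ± 0.08 (adjusted p = 0.0369). This fit shares its mice with that of WT males. In WT females and KO males 0 passed, with 4 of 60 and 2 of 61 at 0.05 unadjusted and 1 called by DESeq2 in each, *Fkbp5*. *Fkbp5* was at 1.27 ± 0.26 (adjusted p = 0.212) and 1.64 ± 0.27 (adjusted p = 0.269) in these comparisons, with no overlap in either. Other genes named by size were *Serpinh1*, the collagen chaperone HSP47, at -0.70 ± 0.60 and *Hsf4* at 0.65 ± 0.31 in WT females, and *Serpinh1* at -0.89 ± 0.38 in KO males. *Serpinh1* is also made by collagen-producing cells, and its highest values, 27.5 and 28.3 CPM, were in the libraries of WT WDA female mouse 7 and KO WDA male mouse 17, those with the most cholangiocyte transcripts.

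Between KO or HepKO and WT mice, 0 of the other pathway genes passed in any of the 7 comparisons by edgeR. Unadjusted, 0.05 was passed by 3 in WDA females, 6 in WDA males, 9 in Res females, 1 in Res males, 9 in HepKO females, 3 with both sexes after resolution and 10 for the difference between the sexes. DESeq2 called 6 in Res females, 1 in HepKO females, 4 for the difference between the sexes and 0 in the rest. Among those with an average log2 CPM of at least 2, *Chordc1* was the largest difference in 5 of the 7. These were HepKO females, Res females, Res males, both sexes after resolution and the difference between the sexes. All but the first use the same Res mice, so they are not independent. *Chordc1* was 16.0, 20.5 and 45.4 CPM in WT Res females and 7.72, 8.92 and 9.11 CPM in KO Res females, without overlap, a log2 fold change of -1.72 ± 0.37 (adjusted p = 0.105). In HepKO females *Chordc1* was at -0.94 ± 0.22 (adjusted p = 0.257), without overlap, and in Res males at 0.47 ± 0.20 (adjusted p = 1). The KO effect on *Chordc1* in females minus that in males was -2.17 ± 0.46 (adjusted p = 0.265), and those on *P4ha1* and *Hsf2* were -1.66 ± 0.40 and -1.42 ± 0.36 (adjusted p = 0.265 for both). *P4ha1*, a collagen prolyl hydroxylase, was 9.45, 9.59 and 12.0 CPM in WT WDA females against 4.72, 5.62 and 6.15 CPM in KO WDA females (-0.93 ± 0.20, adjusted p = 0.978) and 4.97, 6.49 and 7.19 CPM in HepKO females (-0.74 ± 0.20, adjusted p = 0.311), and it was at -1.33 ± 0.33 in Res females (adjusted p = 0.118). *Hsf2* was at -1.18 ± 0.29 in Res females (adjusted p = 0.118). Further genes named by size were *Serpinh1* at -0.90 ± 0.54 and *Dnajb4* at -0.61 ± 0.24 in WDA females (adjusted p = 0.978 for both), *Serpinh1* at 1.06 ± 0.41 and *Cryab*, alpha B-crystallin, at 0.90 ± 0.49 in WDA males, *P4ha1* at 0.35 ± 0.20 and *Fkbp5* at -0.34 ± 0.25 in Res males, and *Cryab* at -0.71 ± 0.34 in HepKO females. With both sexes after resolution *Chordc1* was at -0.61 ± 0.39, *P4ha1* at -0.48 ± 0.31 and *Hsf2* at -0.45 ± 0.27.

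The genes most like the members were found by Pearson's r over the 27 libraries between log2 CPM and the mean z score of the 10 members, among 13524 other genes. Of the 10 genes with the highest r, 5 were in the lists of pathway genes, which hold 64 genes present in the tables. Members and lists were chosen with these data known, so this count is a description. Other listed genes ranked near the bottom of the 13524, such as *Unc45a* at 13233 and *Dnajb5* at 13229. *Stip1* was first (r = 0.928) and *Chordc1* next (r = 0.896), followed by *Mgme1* (0.875), *Hnrnph3* (0.850), *Hsp90ab1* (0.849), *Ubfd1* (0.834), *Dnajb2* (0.834), *Klhl21* (0.833), *Impa1* (0.832) and *Fkbp4* (0.821). With group means subtracted, r was 0.915 for *Stip1*, 0.946 for *Chordc1* and 0.844 for *Hsp90ab1*. Within the 15 WDA libraries and the 12 Res libraries r was 0.924 and 0.880 for *Stip1* and 0.961 and 0.850 for *Chordc1*. The libraries share depth and scaling, and Spearman's rho over all 27 was 0.841 and 0.961. Without the 2 libraries farthest from the median score, WT WDA male mice 19 and 21, r was 0.913 and 0.892. Both genes were picked by their r over these same libraries, so these values are a description and not independent support.

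The lowest r was that of *Cirbp*, the cold-inducible RNA-binding protein, at -0.856 (rho of -0.901, and -0.834 without the same 2 libraries). It was -0.870 within WDA libraries, -0.846 within Res libraries and -0.766 with group means subtracted. *Cirbp* is a transcript known to rise at mild hypothermia and to fall with heat. It was 12.5, 15.4 and 16.3 CPM in WT WDA males, 20.2, 31.3 and 40.9 CPM in WT Res males, and 52.8, 57.5 and 59.5 CPM in KO Res females, the group with the least *Hspa1b*. In WT Res female mouse 12, the mouse highest in all members of its group, *Cirbp* was 13.1 CPM against 29.2 and 46.6 CPM in mice 13 and 1. *Cirbp* was picked by its r over these same libraries, so its changes between stages are a description and no test is read from them. After resolution it was higher by 1.09 ± 0.25 in WT males and by 0.84 ± 0.13 in KO females. Its relative *Rbm3*, also cold-inducible, did not share the low r of *Cirbp* over the 27 libraries, at -0.225. With group means subtracted, r of *Rbm3* was -0.700. It did not pass in these comparisons. Also among the 5 lowest were *Hnrnpl* (-0.842), which acts in splicing, *Zfp810* (-0.835) and *Tead1* (-0.834).

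**Figure D5:**
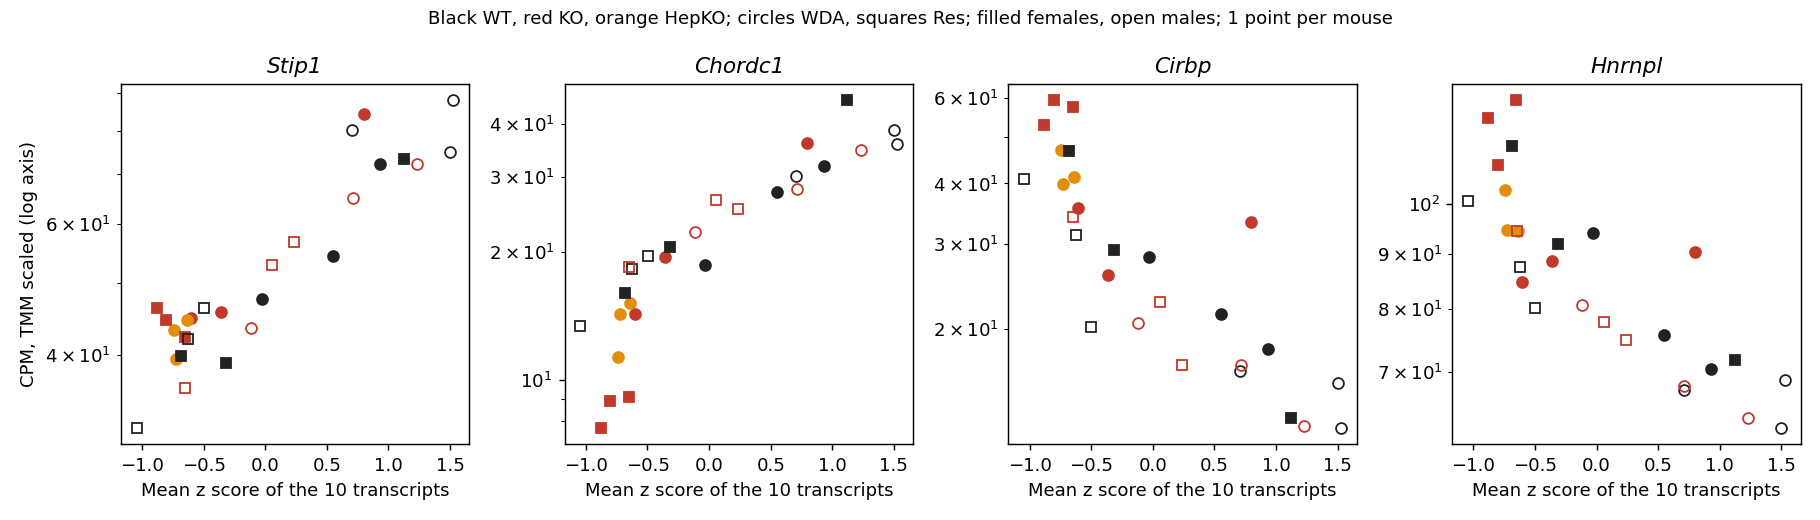
CPM (log axis) of *Stip1*, *Chordc1*, *Cirbp* and *Hnrnpl* in each of 27 mice against the mean z score of the 10 members. *Stip1* and *Chordc1* rise with the score across all groups, and *Cirbp* and *Hnrnpl* fall, with WT WDA male mice 19 and 21 at the right end.

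Some other transcripts moved with the members and others did not, and their part in the results was not tested. Of 14 ER chaperones, which belong to the unfolded protein response rather than to HSF1, 8 fell in WT males after resolution and 3 in KO females, with medians of -0.88 and -0.32, where 11.0% and 20.4% of all genes passed in either direction. The 3 of 14 in KO females is near that share. Their median in KO against WT mice after resolution was -0.79 in females and 0.26 in males, with 0 passing in either. Their summed level was 4419.4 to 5505.7 CPM in WT WDA males and 2041.3 to 3331.6 CPM in WT Res males, without overlap. In WT Res females their sum was highest in mouse 12, at 4450.8 CPM against 2594.7 and 2706.0 CPM. Of 5 mitochondrial chaperones other than HSP60 and HSP10 (*Hspa9*, *Trap1*, *Dnaja3*, *Clpp* and *Lonp1*), 0 passed in any comparison by edgeR, with a median of -0.07 in WT males. *Hspe1* (HSP10), counted above with the heat-inducible genes, fell in WT males, and its partner *Hspd1* (HSP60) was at -0.40 ± 0.12 there (adjusted p = 0.0653). The clock output gene *Dbp*, which swings with the time of day in liver, was 41.9, 46.3 and 56.7 CPM in WT WDA males and 1.83, 2.08 and 3.71 CPM in WT Res males, a change of -4.21 ± 0.25 (adjusted p = 0.000369), and 4 of 15 clock genes rose and 4 fell in that comparison. In KO females *Dbp* was 4.52 to 5.07 CPM on WDA and 3.46 to 5.17 CPM after resolution, and 7 of the 15 clock genes rose and 2 fell. HepKO females, with 13.6, 15.7 and 22.6 CPM of *Dbp* against 3.15, 4.80 and 32.5 CPM in WT WDA females, overlapped. Of 9 immediate early genes tested, 1 fell in WT males, while in KO females 4 rose. The shares of all genes that passed, 11.0% and 20.4%, apply to these counts too.

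Markers of other cell types also differed in these comparisons, and their part was not tested. In WT males 3 of 4 neutrophil markers tested rose after resolution (median 2.19). So did 2 of 6 lymphocyte markers (median 1.71) and 1 of 3 cholangiocyte markers (median 0.93). Of 6 endothelial markers 1 rose, while their median was -0.26. Of all genes tested in that comparison, 11.0% passed in either direction. The 5 listed neutrophil markers summed to 4.57 to 5.51 CPM in WT WDA males and 8.42 to 15.8 CPM in WT Res males, and the 6 lymphocyte markers to 2.51 to 3.81 and 6.62 to 8.56 CPM, so both sets were low and without overlap. In KO females 3 of 6 hepatocyte, 2 of 5 neutrophil, 2 of 5 erythroid, 2 of 8 macrophage and 1 of 4 lymphocyte markers rose. There 20.4% of all genes passed in either direction, and the macrophage and lymphocyte counts are near that share. The hepatocyte markers summed to 87721.4 to 106935.7 CPM in KO WDA females and 143397.5 to 171886.8 CPM in KO Res females. In HepKO against WT females on WDA no marker passed, and the medians were 1.28 for erythroid, -2.56 for cholangiocyte and -0.89 for stellate cell and fibroblast markers. Erythroid markers summed to 597.6 to 937.4 CPM in HepKO females and 195.5 to 393.7 CPM in WT females, without overlap. The sum of stellate cell and fibroblast markers was 54.2 to 84.7 CPM in HepKO females and 55.2, 67.1 and 382.9 CPM in WT females, the last in mouse 7.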

How the data were processed

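Whole-liver RNA of 27 *Kdm5b* fl/fl mice was sequenced, 3 mice in each of 9 groups taken from the labels. Per the study's methods, HISAT placed the reads on the genome (GRCm38.p6) and Bowtie2 on its reference genes. The authors deposited expected counts, which are estimated reads per gene without normalization and of which 7.34% to 8.09% per table are not whole, and FPKM values, scaled by transcript length and library total. The tool that made them is not given in the sources used here. The 4 tables list 16588 to 16725 genes each, with 0 counts assumed for a gene that a table does not list. The members and lists were chosen with earlier results of these data known.

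Counts were rounded. The tests were edgeR's quasi-likelihood tests (edgeR 4.0.16, limma 3.58.1, R 4.3.3) after filterByExpr (minimum count 10) and TMM scaling, with p-values adjusted by Benjamini-Hochberg over all genes tested and a threshold of 0.05. Each comparison used its own groups, with sex as a covariate in combined fits. SE was the log2 fold change over the root of F. Replicates are separate mice. Values per mouse are CPM with TMM factors from all libraries. Code for the fits was tested on simulated data. Named genes were all members, up to 8 other pathway genes past the threshold with the largest change (or, where none passed, the 3 largest whose average log2 CPM reached 2), and the 10 highest and 5 lowest in likeness (log2 CPM with prior count 2). The alternatives were DESeq2 1.42.0, RLE scaling, no filter, a spread shared by all groups, leaving out each mouse, log2(FPKM + 0.1), and both HSP70 genes as 1 feature. Library totals, and leaving out 5 libraries with at least 150 CPM of cholangiocyte markers, were added after seeing the data. Some genes that this rule names are not reported here.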

Additional observations from a re-analysis of the deposited data

Results flagged for a closer look

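After resolution *Dnajb5*, a J-domain gene, went in opposite directions in the sexes without overlap. It was 5.40, 5.51 and 6.24 CPM in KO females against 3.19, 4.29 and 5.18 CPM in WT females (log2 ratio of means 0.44), and 2.42, 2.79 and 3.71 CPM in KO males against 3.97, 4.03 and 4.29 CPM in WT males (-0.46). The interaction was 0.86 ± 0.32 with an adjusted p of 0.340 by edgeR, so it did not pass the test of the difference. It was the 1 case among 64 checks of 32 genes, and no member was among them. Outliers were not tested in groups of 3.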

How the results depend on the processing

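Counts of genes called depended on the tool and on single mice, since the spread rests on 3 mice per group. For Res against WDA in WT females, 0 genes became 404 with DESeq2, 840 with a spread shared by all groups, 15 without the cholangiocyte-rich libraries and 0 to 15 leaving out each mouse, and other pathway genes called became 1 and 2 with DESeq2 and the shared spread. In WT males 1361 genes became 308 (shared spread), 814 (library totals) and 106 to 1685 (each mouse left out), and 13 pathway genes became 3, 8 and 2 to 15. In KO females 2550 became 1558 (shared spread) and 1026 to 2292 (each mouse), and 13 pathway genes became 5 to 14. In KO males 0 became 79 (DESeq2), 2 (no filter), 102 (shared spread), 5 (without the cholangiocyte-rich libraries) and 0 to 10 (each mouse), with 1 pathway gene under DESeq2 and 1 under the shared spread. With both sexes of WT mice 1349 became 2110 (DESeq2), 2056 (shared spread), 626 (library totals), 2310 (without the cholangiocyte-rich libraries) and 696 to 2949 (each mouse), and 7 pathway genes became 12, 4 without the filter, 11, 2 with library totals, and 2 to 14.

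For KO against WT, 0 genes became 8 in WDA females, 17 in WDA males and 7 in Res males with DESeq2. In Res females 0 became 636 (DESeq2), 1 (no filter), 670 (shared spread) and 0 to 852 (each mouse, the last without WT Res mouse 1), and 0 pathway genes became 6, 6 and 0 to 9. With both sexes after resolution 0 became 6 (DESeq2) and 26 (shared spread). The difference between the sexes went from 0 to 85 (DESeq2), 9 (shared spread), 1 (without the cholangiocyte-rich libraries) and 0 to 241 (each mouse), with 4 pathway genes under DESeq2 and 0 to 4 leaving out each mouse. For HepKO, 0 became 230 (DESeq2), 7 (no filter), 49 (shared spread), 349 (without the cholangiocyte-rich libraries) and 0 to 349 (each mouse), with 1 pathway gene under DESeq2, 3 without those libraries and 0 to 3 leaving out each mouse. The causes were not tested. No paired analysis was possible because mouse numbers name different animals in each group.

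Of the 50 log2 fold changes of named pathway genes, none changed direction in the settings that kept all mice of the comparison or left out those libraries. Leaving out 1 mouse, *Serpinh1* in WT females (Res against WDA) ranged from -1.26 to 0.136, the last without WT WDA mouse 7, 73 values lost their call and 7 gained one. Of the members' values, 13 of 888 moved by more than the spread between mice when 1 mouse was left out, and 56 of 888 changed sign. With 3 mice a group, a missed threshold says little about whether values differ.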
